A study of Mus musculus with 10 samples.

Results

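Mouse heart fibroblasts that had received the reprogramming factors Mef2c, Gata4 and Tbx5 (MGT) together with the compound ZLN005 were compared with heart fibroblasts that had not, across all genes. The members are 4 of the 10 polyA RNA libraries of the series, 2 labelled MGT+ZLN005 and 2 labelled as neonatal cardiac fibroblasts (CF), chosen by their labels. Of 21513 genes counted, 15740 had enough reads to be tested. Contractile and calcium-handling genes were higher in the ZLN005-treated induced cardiomyocytes (iCM), and matrix, cell cycle, cholesterol synthesis and macrophage genes were lower. Nuclear genes of the respiratory chain and glycolytic genes were also higher, by smaller median amounts.

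Fibroblasts make and remodel the collagen-rich matrix of the heart, and cardiomyocytes contract by sliding actin against myosin filaments in sarcomeres on a calcium signal. Mef2c, Gata4 and Tbx5 are transcription factors of the developing heart that, expressed together in fibroblasts, switch on part of the cardiomyocyte programme, and the resulting cells are called induced cardiomyocytes. ZLN005 is a small molecule described as raising transcription of Ppargc1a, whose product PGC-1alpha is a coactivator of genes for mitochondria and oxidative metabolism.

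All libraries are labelled as wild-type primary cells from heart at postnatal age P1-P3, and the labels also give the cell type of every library as cardiac fibroblast. The CF, the MGT cells with the solvent DMSO and the MGT cells with ZLN005 were collected at day 14, and primary neonatal cardiomyocytes (CM) at day 3, each with 2 libraries. The remaining group, MGT cells with the compound GW501516, entered here only through the shared estimate of spread. Strain, compound dose and length of exposure are not in the labels, and the CF titles name neither an empty vector nor DMSO, so that the effects of gene delivery, factors, solvent and compound cannot be told apart in the comparison of ZLN005 iCM with CF. No label ties a library to an animal or culture of its own, and p-values therefore measure only the spread between these libraries. In bulk RNA, fewer cells of a type and less RNA per cell cannot be told apart.

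The CF libraries held 61016247 and 61886463 assigned reads and the ZLN005 libraries 39065969 and 56923512. Levels are given as CPM (counts scaled to a fixed effective library size) for both libraries of a group in replicate order, and differences as log2 changes ± the standard error of the fit, with edgeR's quasi-likelihood test and a Benjamini-Hochberg adjusted p over all genes tested. The CF libraries stood further apart than those of the other groups, with 1148 genes at least 2-fold apart against 727 in the ZLN005 pair and 554 in the DMSO pair. Of those 1148 genes, 875 were higher in CF replicate 1, and genes of macrophages were among them. The labelled cells carried their markers. The fibroblast receptor gene Pdgfra stood at 614 and 661 CPM in CF, and the cardiac myosin gene Myh6 at 9652 and 9642 CPM in CM.

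With ZLN005 and the factors, 3785 genes were called higher than in CF at an adjusted p under 0.05 (24.0% of those tested) and 4095 lower (26.0%). The median log2 change of all tested genes was -0.01. Among called genes, 1264 rose and 1632 fell at least 2-fold, and 622 rose and 779 fell at least 4-fold. At 8-fold or more, 343 rose (2.18%) and 415 fell (2.64%), and at 32-fold or more 111 rose and 83 fell. The same factors with DMSO in place of ZLN005 gave 3126 genes above CF (19.9%) and 3066 below (19.5%), and ZLN005 against DMSO gave 1045 higher (6.64%) and 1392 lower (8.84%). The last pair of counts fell to between 477 and 588 higher and between 571 and 712 lower when any 1 DMSO or ZLN005 library was left out. These comparisons share their libraries pairwise, and their values are given side by side only. For the list counts below, the shares of all tested genes against CF are 24.0% higher and 26.0% lower. Against DMSO they are 6.64% and 8.84%.

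**Figure D1:**
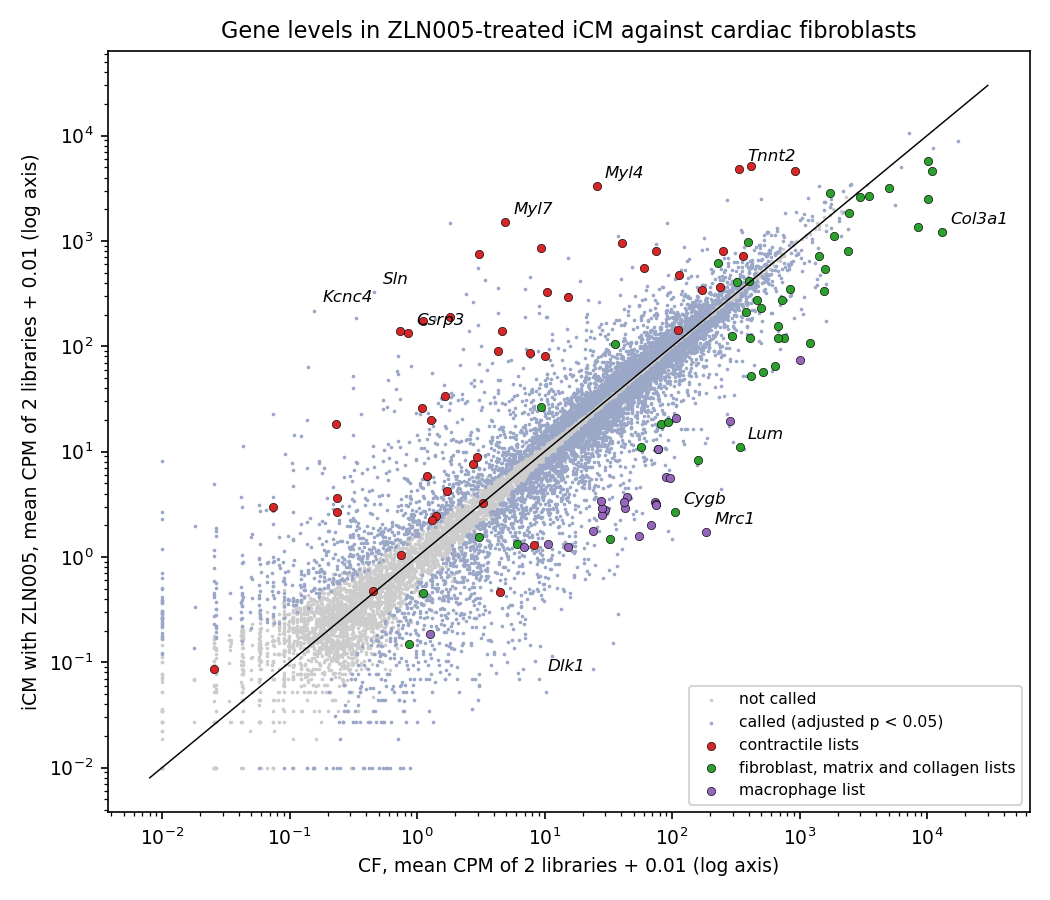
Mean CPM + 0.01 of each tested gene in CF (x, log axis) against ZLN005 iCM (y, log axis), 2 libraries a group, with the line of equal level. Contractile genes (red) lie mostly above the line, fibroblast and collagen genes (green) and macrophage genes (purple) mostly below it, and Kcnc4, Sln, Myl7 and Csrp3 stand at the upper left.

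The delivered factors were the check of the labels. Tbx5 (chromosome 5, 119832668 to 119885219 on the forward strand, GRCm38) stood at 3.01 and 2.99 CPM in CF and 554 and 565 CPM with ZLN005 (log2 change 7.54 ± 0.07, adjusted p = 4.23e-13). Mef2c stood at 96.8 and 88.2 CPM in CF and 452 and 506 CPM with ZLN005 (log2 change 2.37 ± 0.08, adjusted p = 1.66e-09). Gata4 stood at 149.6 and 163 CPM in CF and 453 and 474 CPM with ZLN005 (log2 change 1.57 ± 0.05, adjusted p = 2.45e-09). All 3 factor genes were higher in every ZLN005 library than in every CF library, and reads from a delivered copy and from the cell's own gene are counted together. Tbx5 did not pass the test between ZLN005 and DMSO (log2 change 0.10 ± 0.05, adjusted p = 0.222).

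Ppargc1a, the gene ZLN005 is described as acting on, was low in CF and higher in the ZLN005 cells. Its level (chromosome 5, 51454250 to 51567726 on the reverse strand) was 2.17 and 2.04 CPM in CF and 4.36 and 3.68 CPM with ZLN005 (log2 change 0.93 ± 0.18, adjusted p = 0.00155), and the groups did not overlap. With DMSO it was 1.99 and 2.38 CPM, and ZLN005 exceeded DMSO (log2 change 0.88 ± 0.18, adjusted p = 0.0096). Primary cardiomyocytes held 54.8 and 48.0 CPM. Its paralogue Ppargc1b rose further against CF, from 1.97 and 2.26 to 11.8 and 12.7 CPM (log2 change 2.53 ± 0.14, adjusted p = 1.41e-07). That is the rise from CF with factors and compound together. In the mitochondrial biogenesis and dynamics list, the largest log2 change of any gene was 2.53 for ZLN005 against CF. The largest of any gene was 1.908 for DMSO against CF and 0.875 for ZLN005 against DMSO. These maxima can belong to different genes and are not given as the steps of Ppargc1b. Ppard, which encodes the nuclear receptor PPAR-delta, did not pass the test (log2 change -0.10 ± 0.06, adjusted p = 0.18). Scd1, the stearoyl-CoA desaturase that makes monounsaturated fatty acids (chromosome 19, 44394455 to 44407879 on the reverse strand), fell from 103 and 117 to 77.7 and 81.4 CPM (log2 change -0.46 ± 0.07, adjusted p = 0.000171) and did not pass the test against DMSO (log2 change 0.12 ± 0.07, adjusted p = 0.284).

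Genes of the sarcomere rose together. Of the thick filament and M-band list, 13 rose and 2 fell among 18 tested (median log2 change 3.34), and of the thin filament list 12 of 12 tested genes rose (median log2 change 3.90). In the Z-disc and desmin list, 14 of 15 tested genes rose (median log2 change 3.42). Over 46 sarcomere genes, the share of all assigned reads was 0.294% and 0.359% in CF, 1.83% and 1.86% with DMSO, 2.84% and 2.90% with ZLN005 and 5.0% and 5.03% in CM. Every ZLN005 library was above every CF and DMSO library in this share and below both CM libraries.

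Among thick filament genes, Myh6, the alpha cardiac myosin heavy chain, stood at 39.0 and 41.4 CPM in CF and 918 and 997 CPM with ZLN005 (log2 change 4.58 ± 0.07, adjusted p = 8.27e-12). Myl7, the atrial regulatory light chain (chromosome 11, 5896637 to 5898782 on the reverse strand), stood at 5.30 and 4.45 CPM in CF and 1532 and 1497 CPM with ZLN005 (log2 change 8.28 ± 0.10, adjusted p = 1.02e-12). Both ZLN005 libraries lay far above both CF libraries for these cardiac myosin genes. Myom2, an M-band protein, rose from 2.77 and 3.30 to 744 and 762 CPM (log2 change 7.96 ± 0.08, adjusted p = 4.23e-13). Ttn, the titin spring that spans the sarcomere, rose from 9.73 and 11.2 to 319.7 and 339 CPM (log2 change 4.97 ± 0.08, adjusted p = 8.58e-12). The ventricular light chains went the other way. Myl2 was 7.05 and 9.48 CPM in CF and 1.14 and 1.42 CPM with ZLN005, against 1514 and 1527 CPM in CM (log2 change -2.66 ± 0.19, adjusted p = 9.83e-07). Myl3 was 3.4 and 5.51 CPM in CF and 0.644 and 0.274 CPM with ZLN005, against 702 and 749 CPM in CM (log2 change -3.37 ± 0.33, adjusted p = 1.04e-05), with a log2 change of -3.99 without ZLN005 replicate 1 and -2.77 without replicate 2. The atrial light chain Myl4 rose from 19.9 and 31.3 to 3398 and 3267 CPM (log2 change 7.02 ± 0.19, adjusted p = 4.51e-10), with 1613 and 1680 CPM in CM. Myh7, the slow beta myosin chain, reached 4.24 and 4.21 CPM from 1.68 and 1.71 (log2 change 1.31 ± 0.10, adjusted p = 1.04e-06). CM held 164 and 166 CPM.

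On the thin filament, Tnnt2, the cardiac troponin T that anchors the troponin complex, stood at 255 and 419 CPM in CF and 4604 and 4963 CPM with ZLN005 (log2 change 3.83 ± 0.19, adjusted p = 5.07e-08), with 4738 and 4658 CPM in CM. Lmod2, which nucleates and lengthens actin filaments, stood at 0.945 and 1.26 CPM in CF and 171 and 178 CPM with ZLN005 (log2 change 7.30 ± 0.08, adjusted p = 8.6e-13). Tnni3, the cardiac inhibitory troponin, rose from 4.63 and 3.99 to 93.4 and 88.7 CPM (log2 change 4.40 ± 0.12, adjusted p = 5.82e-10). Actn2, the alpha-actinin that crosslinks actin at the Z-disc, rose from 4.50 and 4.82 to 139.5 and 138 CPM (log2 change 4.89 ± 0.06, adjusted p = 7.96e-13). The formin Fhod3, which assembles cardiac actin, rose from 13.4 and 17.3 to 289.9 and 298 CPM (log2 change 4.26 ± 0.10, adjusted p = 1.45e-10), beside 234 and 218 CPM in CM. Tnni1, the troponin I of slow and fetal muscle, had the smallest change of this list (log2 change 0.74 ± 0.19, adjusted p = 0.00848), and without ZLN005 replicate 1 it did not pass (log2 change 0.57, adjusted p = 0.0638), nor with limma-voom (adjusted p = 0.1) or in a fit of the CF and ZLN005 libraries alone (adjusted p = 0.0684).

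At the Z-disc, Csrp3, a LIM protein of the stretch-sensing machinery (chromosome 7, 48830398 to 48848033 on the reverse strand), stood at 0.756 and 0.919 CPM in CF and 133 and 133 CPM with ZLN005 (log2 change 7.31 ± 0.08, adjusted p = 8.02e-13). Smpx, a small muscle protein, stood at 0.724 and 0.722 CPM in CF and 145 and 134 CPM with ZLN005 (log2 change 7.59 ± 0.08, adjusted p = 6.44e-13). Synpo2l, an actin-associated protein of the Z-disc, stood at 1.61 and 1.97 CPM in CF and 187 and 189.7 CPM with ZLN005 (log2 change 6.72 ± 0.07, adjusted p = 6.44e-13). All 3 genes were low in both CF libraries and much higher in both ZLN005 libraries. Des, the muscle intermediate filament desmin, rose from 7.76 and 10.9 to 846 and 855 CPM (log2 change 6.51 ± 0.13, adjusted p = 4.48e-11). Ankrd1, a titin-bound stretch-response gene, was already at 356 and 481 CPM in CF and reached 5006 and 5205 CPM (log2 change 3.61 ± 0.12, adjusted p = 2.52e-09). Cavin4, a caveolar coat protein of muscle, was the listed gene that did not pass (log2 change 0.45 ± 0.22, adjusted p = 0.121), although without ZLN005 replicate 2 it did (log2 change 0.73).

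**Figure D2:**
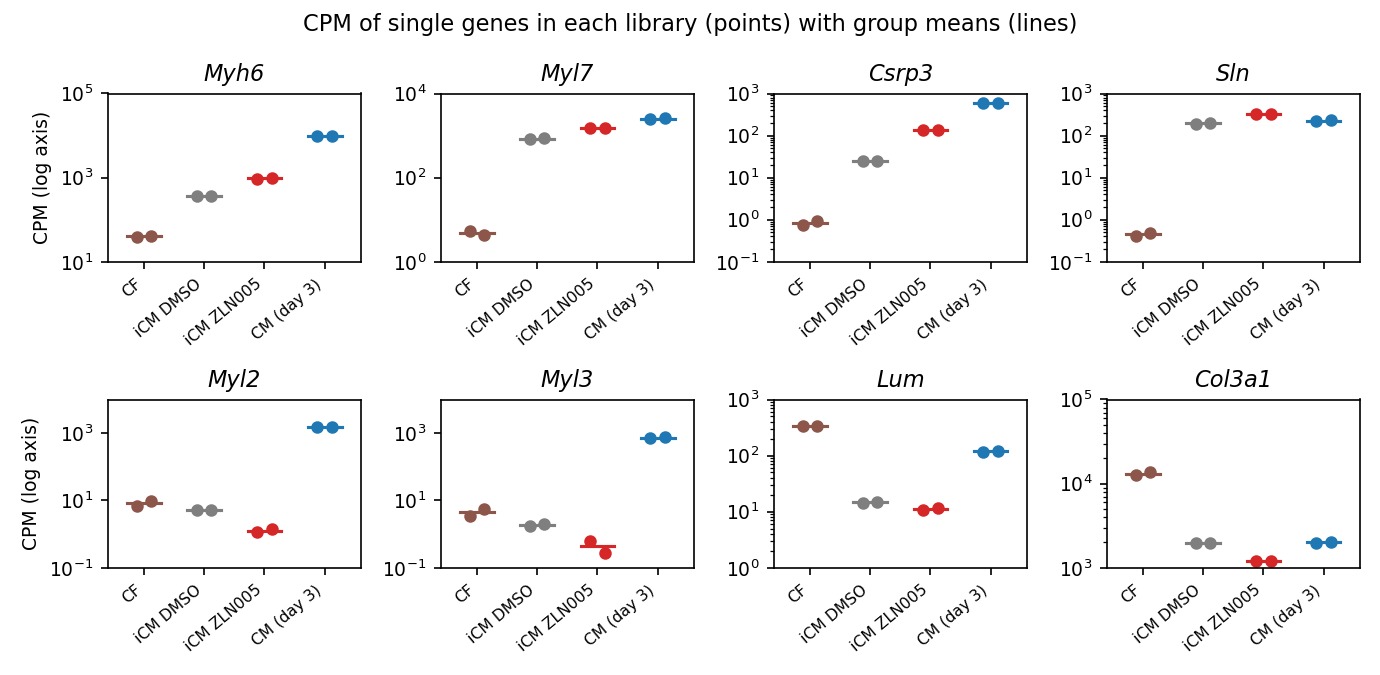
CPM (log axis) of 8 genes in each library (points) of CF, DMSO iCM, ZLN005 iCM and CM, with group means (lines). Myh6, Myl7, Csrp3 and Sln are higher in both iCM groups than in CF, Myl2 and Myl3 are lower in ZLN005 iCM than in CF and high in CM, and Lum and Col3a1 are lower in both iCM groups than in CF.

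Calcium-handling genes rose with the contractile ones, and 20 rose and 4 fell among 27 tested (median log2 change 1.19). Sln, sarcolipin, an inhibitor of the sarcoplasmic reticulum calcium pump (chromosome 9, 53850164 to 53854560 on the forward strand), stood at 0.409 and 0.492 CPM in CF and 329.9 and 324 CPM with ZLN005 (log2 change 9.50 ± 0.09, adjusted p = 4.23e-13), beside 218 and 234 CPM in CM. Ryr2, the calcium release channel of that store, stood at 2.98 and 3.84 CPM in CF and 417 and 432 CPM with ZLN005 (log2 change 6.96 ± 0.11, adjusted p = 8.27e-12). Trdn, triadin, which ties the release channel to the calcium-binding calsequestrin, stood at 4.08 and 4.46 CPM in CF and 357 and 354 CPM with ZLN005 (log2 change 6.38 ± 0.06, adjusted p = 4.23e-13). The pump gene Atp2a2 had a higher base and a smaller ratio, and rose from 487 and 513 to 2477 and 2496 CPM (log2 change 2.31 ± 0.06, adjusted p = 1.89e-10). Casq2, cardiac calsequestrin, rose from 27.9 and 47.6 to 1116 and 1132 CPM (log2 change 4.90 ± 0.20, adjusted p = 1.03e-08), beside 919 and 926 CPM in CM. The 4 listed genes that fell were Cacna1g, a T-type channel subunit (log2 change -3.63 ± 0.17, adjusted p = 3.32e-08), the channel beta subunit Cacnb2, Asph and the inositol trisphosphate receptor Itpr1, with log2 changes of -1.16, -0.37 and -0.30.

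Of the genes of electrical excitation, 11 rose and 5 fell among 23 tested (median log2 change 0.88). Kcnc4, a voltage-gated potassium channel gene (chromosome 3, 107438303 to 107459552 on the reverse strand), had the largest rise among genes with reads in CF, from 0.0945 and 0.197 to 214 and 221 CPM (log2 change 10.53 ± 0.18, adjusted p = 1.63e-11, and 11.13 without CF replicate 2). It stood at 221 and 213 CPM with DMSO and 0.177 and 0 CPM in CM, so that it was high in the iCM libraries and in neither native group. Kcnj5, a subunit of the acetylcholine-gated potassium channel, rose from 36.4 and 47.8 to 229 and 224 CPM (log2 change 2.43 ± 0.10, adjusted p = 1.09e-08). The inward rectifier Kcnj2 and the pacemaker channel Hcn4 fell, by 1.97 and 1.67 on the log2 scale. In the intercalated disc list, 11 of 14 tested genes rose (median log2 change 1.29), led by the desmosomal plaque gene Dsp, which went from 15.7 and 15.1 to 682 and 707 CPM (log2 change 5.50 ± 0.06, adjusted p = 6.44e-13). Gja1, the gap junction protein connexin 43, went from 58.3 and 66.0 to 342 and 343 CPM (log2 change 2.46 ± 0.06, adjusted p = 2.15e-10), beside 1150 and 1146 CPM in CM.

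Promoter windows were read for motifs of the factor families, because the contractile and calcium genes moved together. Windows run from 250 bases before to 50 bases after each gene's start (RefSeq, GRCm38.p6), and MEF2 was searched as CTATTTATA or CTAAAAATA, GATA as AGATAA or TGATAA and T-box as AGGTGT, on both strands. A MEF2 match was present in 4.02% of genes with a window that rose at least 8-fold (10 of 249), in 0.662% of those that fell at least 8-fold (2 of 302) and in 0.883% of all tested genes with a window (107 of 12117). GATA matches were in 22.9%, 18.9% and 13.0% of the same sets and T-box matches in 19.7%, 14.9% and 13.1%. Over all 27025 genes with a window, tested or not, the shares were 1.08%, 21.0% and 15.7%. A match is a run of letters, binding was not measured, and the windows shown were picked after their values were seen. The windows of the contractile and calcium genes Myh6, Ryr2, Actn2, Csrp3, Lmod2, Myl7 and Smpx held no MEF2 match of these letters. The rising genes with a match that are not shown are Fgf6, Gabrb2, Gm15179 and Gm5532. Their mean levels with ZLN005 were 0.892, 0.310, 0.440 and 3.04 CPM. A total of 6 of the 10 rising genes follow with the match in capitals and 10 bases on each side, read 5′ to 3′ on the gene's strand.
Synpo2l (chr14:20664699-20664727, reverse strand): ggctcaggttTATTTTTAGccaggcagac
Xirp2 (chr2:67445918-67445946, forward strand): agctcagttcCTAAAAATAggtgctaggt
Casq2 (chr3:102086337-102086365, forward strand): ttgcatgattTATTTTTAGctcgaaacaa
Gja3 (chr14:57058178-57058206, reverse strand): ctggcggccgCTATTTATAgcttgttgcc
Esrrg (chr1:187608974-187609002, forward strand): taaaactttgCTATTTATAgtctacgccc
Art3 (chr5:92386788-92386816, forward strand): accgaccggaTATAAATAGcagggcagaa
The falling genes with a match are the ferroxidase gene Cp and the homeobox gene Meox2.
Cp (chr3:19957209-19957237, forward strand): aaatgaagccCTATTTATAaaattgcttg
Meox2 (chr12:37108498-37108526, forward strand): acattacactCTATTTATAacctctcaga

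Of the genes in these windows, Xirp2, an actin-binding repeat protein of muscle, rose from 0.315 and 0.131 to 19.4 and 16.9 CPM (log2 change 6.32 ± 0.17, adjusted p = 5.76e-10, and 7.10 without CF replicate 1). The connexin gene Gja3 rose from 2.39 and 3.18 to 48.0 and 48.0 CPM (log2 change 4.11 ± 0.10, adjusted p = 2.34e-10). Esrrg, the estrogen-related receptor gamma of oxidative tissues, rose from 0.362 and 0.427 to 6.76 and 6.86 CPM (log2 change 4.10 ± 0.14, adjusted p = 2.38e-09). Cp fell from 139 and 156 to 15.9 and 16.6 CPM (log2 change -3.18 ± 0.07, adjusted p = 6.93e-11). Meox2 fell from 1.83 and 2.35 to 0.248 and 0.205 CPM (log2 change -3.20 ± 0.37, adjusted p = 4.18e-05). GATA matches stood in windows of large rises and of large falls. The windows of the rising Fgf23 and of the falling Saa3, Dlk1 and Fcrls held a GATA match. Windows of the rising Gpr83, Kcnc4, Ptgfr, Csrp3 and Lmod2 and of the falling Mrc1, Ccl12 and Sfrp2 held none. The whole windows of Myl7 and Smpx, among the largest rises, also held GATA matches (in capitals, with the first base at -42 from the start for Myl7, and at -137 and -27 for Smpx) and neither a MEF2 nor a T-box match of these letters.
Myl7 (chr11:5898733-5899032, reverse strand): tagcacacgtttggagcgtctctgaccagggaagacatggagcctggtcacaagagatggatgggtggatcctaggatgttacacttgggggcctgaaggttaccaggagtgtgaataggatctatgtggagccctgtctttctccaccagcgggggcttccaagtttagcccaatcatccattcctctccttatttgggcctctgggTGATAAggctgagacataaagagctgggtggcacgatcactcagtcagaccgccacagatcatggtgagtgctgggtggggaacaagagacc
Smpx (chrX:157698723-157699022, forward strand): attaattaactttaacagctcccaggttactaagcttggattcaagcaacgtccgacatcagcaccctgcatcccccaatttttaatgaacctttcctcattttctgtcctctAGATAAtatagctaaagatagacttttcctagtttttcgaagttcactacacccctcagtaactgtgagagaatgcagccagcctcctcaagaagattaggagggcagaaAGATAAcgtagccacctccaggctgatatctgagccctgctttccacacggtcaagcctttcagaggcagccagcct

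Cardiac transcription factor genes were divided, and 12 rose and 11 fell among 30 tested (median log2 change -0.13). Beside the delivered factors, Tbx18 rose from 80.7 and 89.96 to 358 and 370.1 CPM (log2 change 2.09 ± 0.06, adjusted p = 6.09e-10). Smyd1, a muscle histone methyltransferase, rose from 4.52 and 3.59 to 30.5 and 28.7 CPM (log2 change 2.86 ± 0.09, adjusted p = 1.39e-09). Hopx, a homeodomain protein of the developing heart, rose from 0.661 and 0.935 to 7.80 and 7.17 CPM (log2 change 3.23 ± 0.16, adjusted p = 6.11e-08). Nkx2-5, a core cardiac homeobox gene, was at 0.157 and 0.361 CPM in CF and 0.198 and 0.0342 CPM with ZLN005, against 31.0 and 28.4 CPM in CM, and did not pass (log2 change -1.30 ± 0.68, adjusted p = 0.137), although it passed without CF replicate 1 (log2 change -1.78) or ZLN005 replicate 1 (-2.81), or with no filter on low counts (adjusted p = 0.0479). Myocd, a coactivator of serum response factor, fell from 11.8 and 16 to 6.52 and 7.0 CPM (log2 change -1.03 ± 0.13, adjusted p = 7.45e-05). Of the natriuretic list, 3 rose and 3 fell among 6 tested (median log2 change 0.10). Nppa, the atrial natriuretic peptide, was 5.65 and 6.65 CPM in CF and 5.05 and 4.41 CPM with ZLN005, against 4987 and 5402 CPM in CM (log2 change -0.39 ± 0.13, adjusted p = 0.0293). Its call was lost without CF replicate 2 (adjusted p = 0.0592, log2 change -0.27) and without ZLN005 replicate 2 (adjusted p = 0.235, log2 change -0.27). It was also lost with limma-voom (adjusted p = 0.0901), in a fit of the CF and ZLN005 libraries alone (adjusted p = 0.13) and at a threshold of 0.01. Corin, the protease that activates this peptide, rose from 0.661 and 0.788 to 31.6 and 31.2 CPM (log2 change 5.43 ± 0.09, adjusted p = 1.13e-11), beside 36.7 and 35.1 CPM in CM. The list's number of falling genes was 1 without CF replicate 2 or ZLN005 replicate 2.

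Skeletal muscle genes rose as well, and 13 rose and 2 fell among 22 tested (median log2 change 1.73), with 1 falling with DESeq2 or limma-voom. The number falling also varied with the library left out. The median was then between 1.49 (without CF replicate 1) and 1.79 (without CF replicate 2). The summed level of the list was 27.3 and 30.5 CPM in CF, 190 and 197 CPM with ZLN005 and 456 and 462 CPM in CM. The genes that fell were Tnnt1, slow skeletal troponin T (log2 change -1.27 ± 0.17, adjusted p = 0.000127), and Ckm, the muscle creatine kinase (log2 change -2.18 ± 0.82, adjusted p = 0.0486). Ckm kept its call without CF replicate 1 (-2.91) and lost it without CF replicate 2 (-0.62), ZLN005 replicate 1 (-1.90) or ZLN005 replicate 2 (-2.66), with DESeq2 (adjusted p = 0.0767), with limma-voom (adjusted p = 0.192) and with the replicate number as a block (adjusted p = 0.0549). Myl1, a fast skeletal light chain, stood at 0.504 and 0.656 CPM in CF and 48.1 and 48.1 CPM with ZLN005 (log2 change 6.37 ± 0.10, adjusted p = 5.8e-12), beside 76.6 and 78.3 CPM in CM. Tnnt3, fast skeletal troponin T, stood at 3.4 and 3.30 CPM in CF and 36.5 and 37.1 CPM with ZLN005 (log2 change 3.46 ± 0.10, adjusted p = 8.71e-10), beside 11.0 and 13.1 CPM in CM. Mybpc2, the fast myosin-binding protein C, stood at 0.157 and 0.164 CPM in CF and 7.01 and 8.71 CPM with ZLN005 (log2 change 5.59 ± 0.23, adjusted p = 1.12e-08). The fast and perinatal myosin heavy chain genes Myh1 and Myh8 rose from 1.57 and 2.89 to 30.8 and 31.7 CPM (log2 change 3.81 ± 0.23) and from 1.12 and 2.49 to 26.8 and 30.8 CPM (4.0 ± 0.27, and 4.69 without CF replicate 2). These myosin genes are near-identical copies, and how the counting split their reads is not given in the sources used here. The myogenic factor gene Myog, at 0.0315 and 0.0328 CPM in CF and 0.0496 and 0.171 CPM with ZLN005, did not pass (log2 change 1.79 ± 0.96, adjusted p = 0.15).

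The largest rises outside the muscle lists were also genes with little or no signal in CF. Gpr83, a G protein-coupled receptor gene, had 0 reads in CF and 793 in the ZLN005 libraries, at least 338-fold higher against a floor of 3 reads over the CF pair. Rxfp1, the relaxin receptor, stood at 0.252 and 0.394 CPM in CF and 182 and 189 CPM with ZLN005 (log2 change 9.16 ± 0.10, adjusted p = 7.96e-13). Ptgfr, the prostaglandin F receptor, stood at 0.346 and 0.263 CPM in CF and 52.5 and 50.9 CPM with ZLN005 (log2 change 7.39 ± 0.12, adjusted p = 9.34e-12). The hormone gene Fgf23 was at 0 and 0.0656 CPM in CF and 11.4 and 11.3 CPM with ZLN005 (log2 change 8.36 ± 0.48, adjusted p = 1.79e-07), with 7.40 without CF replicate 1, while without CF replicate 2 the remaining CF library had 0 reads and no fold is given. Abra, an actin-binding protein of striated muscle, went from 0.0630 and 0.197 to 61.1 and 65.9 CPM (log2 change 8.92 ± 0.19, adjusted p = 8.59e-11, and 9.92 without CF replicate 2). Mlph, melanophilin, a carrier of pigment granules, went from 1.31 and 1.44 to 176 and 186 CPM (log2 change 7.04 ± 0.07, adjusted p = 4.23e-13). In CM these genes stood at 0.354 and 0 CPM for Gpr83, 36.8 and 36.2 for Rxfp1, 17.9 and 16.6 for Ptgfr, 0 and 0.102 for Fgf23, 14.8 and 16.8 for Abra and 1.59 and 1.61 for Mlph.

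Fibroblast identity genes fell. Of the fibroblast surface and matrix list, 2 rose and 25 fell among 28 tested (median log2 change -2.19), and of the fibroblast transcription factors 12 of 16 tested genes fell (median log2 change -1.22). The median of the transcription factors was -1.35 without ZLN005 replicate 1 and -1.04 without ZLN005 replicate 2, with fewer genes called. Their summed level was 670 and 724 CPM in CF, 425 and 426 CPM with ZLN005 and 668 and 637 CPM in CM. Lum, the collagen-binding proteoglycan lumican (chromosome 10, 97565128 to 97572703 on the forward strand), stood at 336 and 341 CPM in CF and 10.7 and 11.4 CPM with ZLN005 (log2 change -4.93 ± 0.07, adjusted p = 4.49e-12). Pdgfra, the growth factor receptor that marks resident fibroblasts, stood at 614 and 661 CPM in CF and 63.5 and 65.5 CPM with ZLN005 (log2 change -3.30 ± 0.06, adjusted p = 1.63e-11), and the proteoglycan decorin gene Dcn at 753 and 748 CPM in CF and 119 and 121 CPM with ZLN005 (log2 change -2.64 ± 0.05, adjusted p = 1.99e-11). In CM, Lum stood at 116 and 121 CPM, Pdgfra at 107 and 101 CPM and Dcn at 195 and 198 CPM. Cygb, cytoglobin, an oxygen-binding protein of fibroblasts, fell from 112 and 98.9 to 2.60 and 2.67 CPM (log2 change -5.32 ± 0.11, adjusted p = 6.47e-11). Eln, elastin, fell from 7565 and 9449 to 1367 and 1374 CPM (log2 change -2.63 ± 0.09, adjusted p = 3.83e-09). Thy1 and Vim, which encode a fibroblast surface protein and the filament protein vimentin, were the listed genes that rose, from 199.7 and 256 to 618 and 628 CPM (log2 change 1.45 ± 0.09, adjusted p = 3.37e-07) and from 1677 and 1771 to 2835 and 2861 CPM (log2 change 0.72 ± 0.05, adjusted p = 1.17e-06). The transcription factors Snai1, Snai2 and Sox9 fell by 2.01, 2.19 and 1.81 on the log2 scale, and Tcf4 by 0.93.

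Of the collagen genes, 4 rose and 14 fell among 19 tested (median log2 change -1.24). All 19 together took 5.10% and 5.58% of assigned reads in CF, 3.27% and 3.20% with DMSO, 2.14% and 2.18% with ZLN005 and 1.98% and 1.95% in CM, so that the ZLN005 libraries were below both CF and both DMSO libraries. Col3a1, a fibrillar collagen (chromosome 1, 45311538 to 45349706 on the forward strand), stood at 12580 and 13740 CPM in CF and 1213 and 1221 CPM with ZLN005 (log2 change -3.44 ± 0.07, adjusted p = 3.9e-11). The chains of collagen I fell less, Col1a1 by 1.24 and Col1a2 by 2.03 on the log2 scale. Col11a1 fell from 609 and 759 to 121 and 120.5 CPM (log2 change -2.50 ± 0.09, adjusted p = 2.77e-09). The 4 collagens that rose were Col15a1, Col18a1, Col6a3 and Col12a1, with log2 changes of 1.56, 1.5, 1.31 and 0.33. Col6a3 moved apart from the other chains of collagen VI, since Col6a1 fell by 2.13 and Col6a2 by 1.77.

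**Figure D3:**
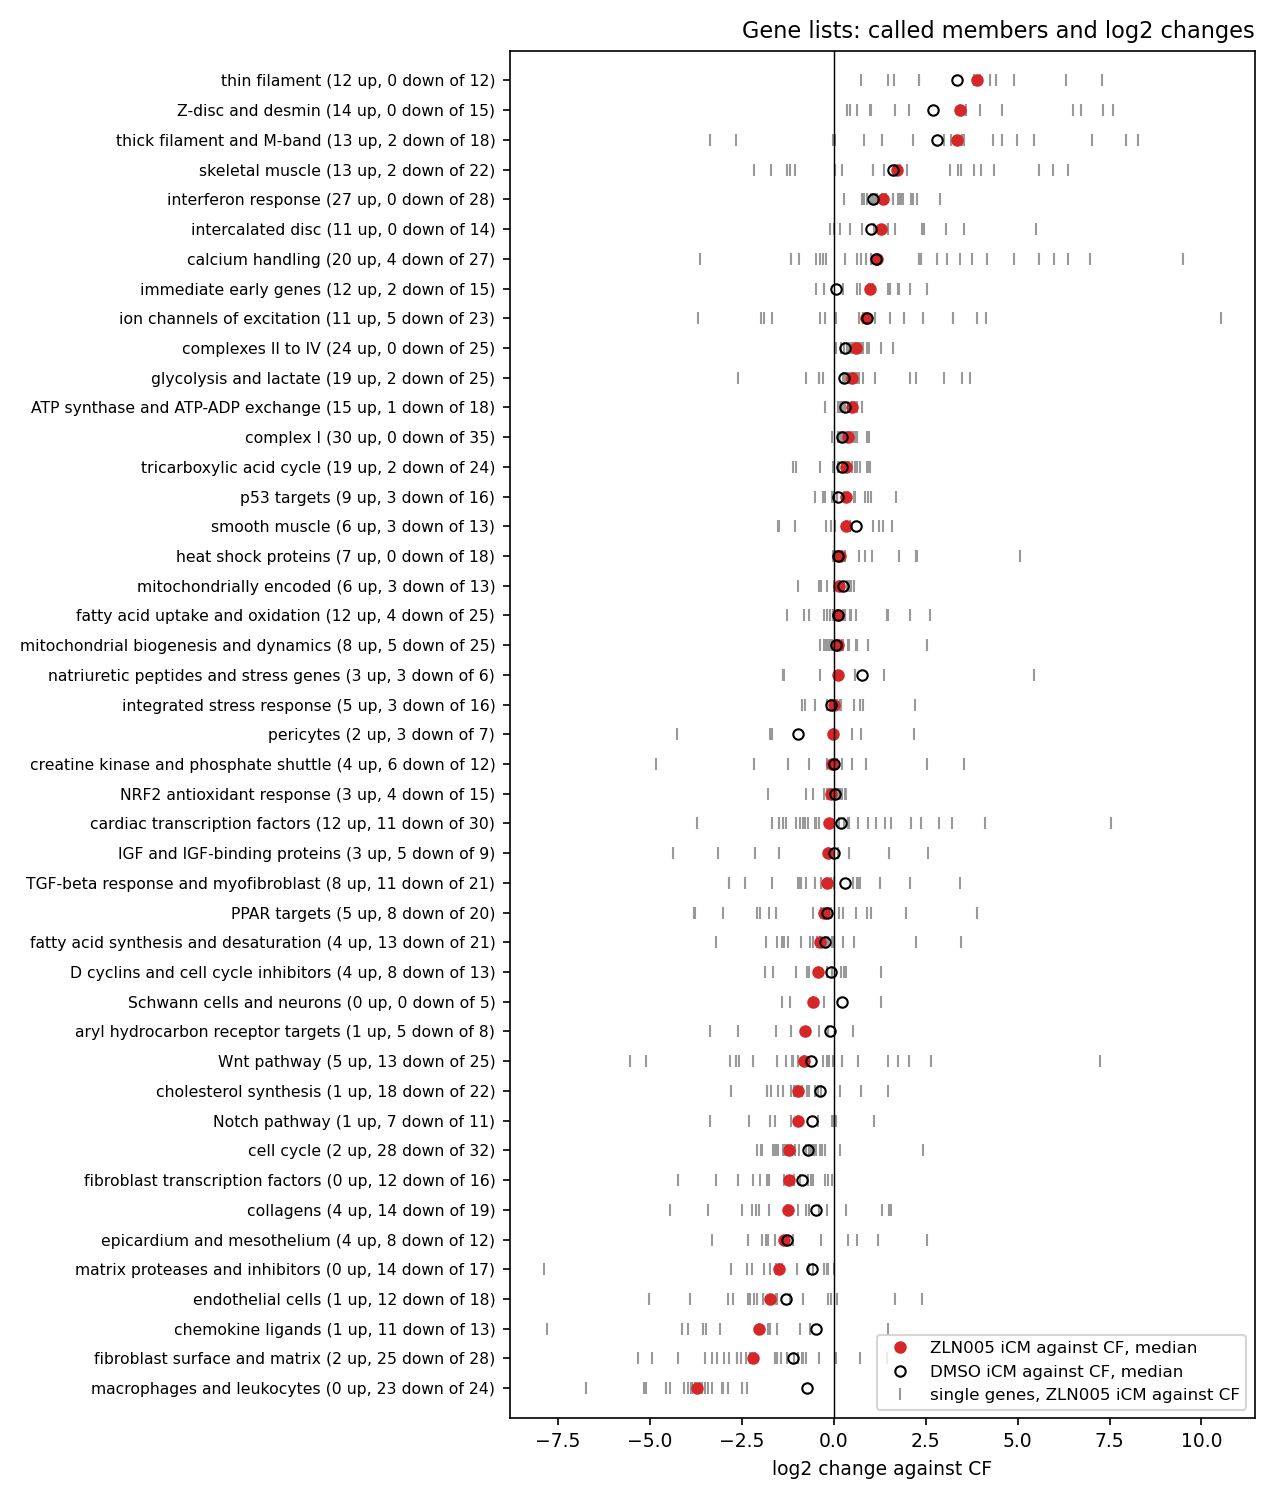
Log2 changes against CF of the gene lists with at least 5 tested genes, where grey ticks are single genes for ZLN005 iCM, red points their medians and open circles the medians for DMSO iCM. The label of each list gives its called genes with ZLN005, and the contractile lists lie at the top and the macrophage list at the bottom.

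Genes of the TGF-beta response, which drives matrix production, were divided, and 8 rose and 11 fell among 21 tested (median log2 change -0.19). Tgfbi, a secreted matrix protein that TGF-beta induces, fell from 67.1 and 57.5 to 8.5 and 8.66 CPM (log2 change -2.86 ± 0.09). The collagen-binding integrin gene Itga11 fell from 104 and 132 to 16.5 and 16.1 CPM (-2.86 ± 0.10). In the other direction, Ltbp1, which binds latent TGF-beta, rose from 36.5 and 43.3 to 421 and 443 CPM (3.44 ± 0.07), and the ligand gene Tgfb2 from 112 and 140.4 to 523 and 530 CPM (2.06 ± 0.09). Of the matrix proteases and inhibitors, 14 of 17 tested genes fell (median log2 change -1.48), among them the gelatinase gene Mmp2, from 1449 and 1654 to 338 and 328 CPM (log2 change -2.22 ± 0.07, adjusted p = 9.83e-10), and the stromelysin gene Mmp3, from 76.0 and 68.3 to 10.6 and 10.2 CPM (log2 change -2.80 ± 0.09, adjusted p = 1.42e-09).

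In the Wnt list, 5 rose and 13 fell among 25 tested (median log2 change -0.80). The secreted Wnt antagonists Sfrp1 and Sfrp2 were among the largest falls, from 356 and 380 to 10.7 and 10.5 CPM (log2 change -5.12 ± 0.07, adjusted p = 1.98e-12) and from 26.9 and 30.6 to 0.619 and 0.616 CPM (log2 change -5.53 ± 0.16, adjusted p = 9.37e-10). Another antagonist, Wif1, rose from 0.189 and 0.0656 to 19.4 and 20.1 CPM (log2 change 7.24 ± 0.23, adjusted p = 1.36e-09, and 8.20 without CF replicate 1), and the ligand gene Wnt5a fell from 51.7 and 50.5 to 8.80 and 8.30 CPM (log2 change -2.58 ± 0.07, adjusted p = 8.13e-10). Antagonists of this pathway moved in both directions. In the Notch list, 1 rose and 7 fell among 11 tested (median log2 change -0.99), with the ligand gene Jag1 at 109 and 114 CPM in CF and 37.0 and 36.2 CPM with ZLN005 (log2 change -1.61 ± 0.04, adjusted p = 6.72e-10). Of the insulin-like growth factor genes, 3 rose and 5 fell among 9 tested (median log2 change -0.15). Igf1 fell from 296 and 314 to 32.9 and 36.0 CPM (log2 change -3.15 ± 0.08, adjusted p = 2.54e-10), its binding protein gene Igfbp4 from 158 and 155 to 7.68 and 7.36 CPM (log2 change -4.38 ± 0.07, adjusted p = 5.76e-12). Igfbp5 rose from 214 and 143 to 1035 and 1084 CPM (log2 change 2.57 ± 0.14, adjusted p = 1.47e-07).

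Among the 12 largest falls were genes of macrophages, and these rested unevenly on the CF libraries. Of the macrophage and leukocyte list, 23 of 24 tested genes fell (median log2 change -3.71). Its summed level was 4262 and 728 CPM in CF, 1259 and 1298 CPM with DMSO, 178 and 178 CPM with ZLN005 and 51.9 and 52.6 CPM in CM, so that both ZLN005 libraries were below every CF and DMSO library and CF replicate 1 was above every other. With limma-voom 7 genes of the list fell, and with DESeq2 24. The median log2 change of the list was -1.99 without CF replicate 1 and -4.46 without CF replicate 2, with 23 and 24 genes falling. Between DMSO and CF, edgeR, DESeq2 and limma each called 0 genes of the list and 1 had an unadjusted p under 0.05 in edgeR, while against DMSO 22 fell with ZLN005 (median log2 change -2.95). Csf1r, the receptor for the macrophage growth factor, stood at 149 and 28.9 CPM in CF and 5.30 and 6.07 CPM with ZLN005 (log2 change -3.96 ± 0.61, adjusted p = 0.000329), with -2.31 without CF replicate 1 and -4.70 without CF replicate 2. The mannose receptor gene Mrc1 stood at 345 and 23.2 CPM in CF and 1.51 and 1.88 CPM with ZLN005 (log2 change -6.74 ± 1.15, adjusted p = 0.000656, not passing with limma-voom at adjusted p = 0.196), with -3.72 without CF replicate 1 and -7.64 without CF replicate 2. Lyz2, lysozyme, stood at 1685 and 328 CPM in CF and 73.3 and 74.3 CPM with ZLN005 (log2 change -3.77 ± 0.57, adjusted p = 0.000289), with -2.13 and -4.51 without each CF library.

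Of the other largest falls, Mmp9, F13a1, Nxpe5, Clec4n, Ccl12, Kcnj10, Aoah, Fcrls and Nlrp3 also stood higher in the CF library numbered 1 than in the one numbered 2. Mmp9, a gelatinase of leukocytes, stood at 20.2 and 0.197 CPM in CF and 0.0496 and 0.0342 CPM with ZLN005 (log2 change -7.89 ± 1.85, adjusted p = 0.00489). The log2 change of Mmp9 without CF replicate 1 was -2.18 and did not pass (adjusted p = 0.0954). It was -8.87 without CF replicate 2, and -7.61 without ZLN005 replicate 2 with an adjusted p of 0.0555. F13a1, a clotting factor gene, stood at 74.7 and 1.03 CPM in CF and 0.297 and 0.257 CPM with ZLN005 (log2 change -7.10 ± 1.60, adjusted p = 0.00397), with -1.88 without CF replicate 1 and -8.08 without CF replicate 2. For the other 7 genes the log2 change lay between -4.75 for Clec4n and -3.28 for Aoah without CF replicate 1, and between -8.74 for Nxpe5 and -6.65 for Nlrp3 without CF replicate 2. These genes had few reads with ZLN005, and leaving out a ZLN005 library also moved Nlrp3 (-7.11 without replicate 1 and -5.07 without replicate 2) and, without replicate 2, Ccl12 (-7.02) and Nxpe5 (-8.41). Kcnj10 was -5.48 without ZLN005 replicate 1, while without replicate 2 the remaining ZLN005 library had 0 reads and no fold is given. With limma-voom none of these 9 genes passed, at adjusted p between 0.07 for Nlrp3 and 0.507 for F13a1. In a fit of the CF and ZLN005 libraries alone, F13a1 (adjusted p = 0.0586) and Mmp9 (adjusted p = 0.0621) did not pass either. The part of the macrophage-marker difference in the falls of other genes was not tested. With the macrophage list and all genes at least 2-fold apart between the CF libraries left out, 3664 genes rose and 3661 fell.

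Saa3, an acute-phase protein gene, and Dlk1, which encodes a Notch-like protein of progenitor cells, fell with less spread between the CF libraries. Saa3 stood at 31.5 and 16.3 CPM in CF and 0.0496 and 0.103 CPM with ZLN005 (log2 change -8.17 ± 0.58, adjusted p = 8.82e-07, and -8.83 without ZLN005 replicate 2), and Dlk1 at 8.97 and 9.21 CPM in CF and 0.0496 and 0.0684 CPM with ZLN005 (log2 change -7.17 ± 0.41, adjusted p = 1.68e-07). With the macrophage list and genes 2-fold apart between the CF libraries left out, a choice made after the data were seen, the largest falls went on with Megf6, Sfrp2, Cygb, Ccbe1, Egflam, Sfrp1, Krt7, Col6a5 and Lum. Megf6, a protein with epidermal growth factor repeats, stood at 212 and 271 CPM in CF and 4.11 and 4.69 CPM with ZLN005 (log2 change -5.77 ± 0.15, adjusted p = 4.01e-10). Ccbe1, a secreted collagen- and calcium-binding protein of lymphatic growth, stood at 5.08 and 7.57 CPM in CF and 0.0991 and 0.205 CPM with ZLN005 (log2 change -5.29 ± 0.36, adjusted p = 6.47e-07, and -5.94 without ZLN005 replicate 2). Egflam, a matrix protein, and the keratin gene Krt7 had log2 changes of -5.21 and -5.06, or -5.96 and -5.97 without ZLN005 replicate 2. Col6a5, a collagen VI chain, fell by 4.99 on the log2 scale.

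**Figure D4:**
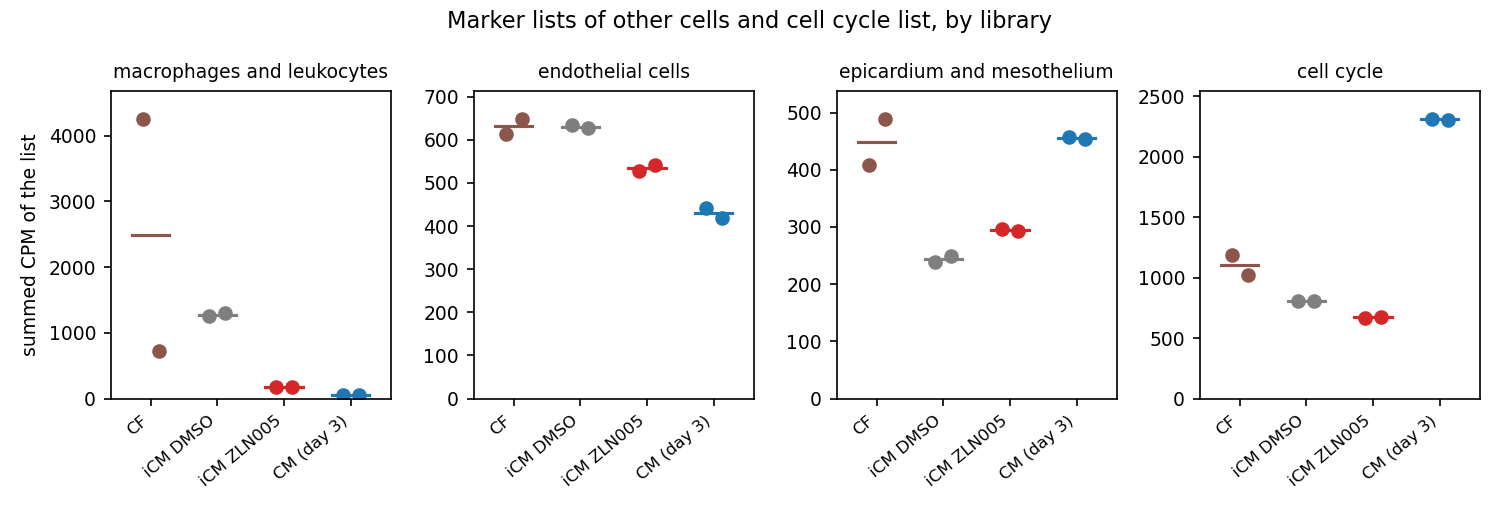
Summed CPM of 4 gene lists in each library (points, axes from 0) of CF, DMSO iCM, ZLN005 iCM and CM, with group means (lines). CF replicate 1 stands alone for macrophage genes at 4262 CPM, and cell cycle genes are lower in ZLN005 iCM than in CF and highest in CM.

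Markers of other heart cells moved less evenly. Of the endothelial list, 1 rose and 12 fell among 18 tested (median log2 change -1.75), with a summed level of 612 and 649 CPM in CF and 528 and 541 CPM with ZLN005. The number rising was 3 without CF replicate 2. The angiopoietin receptor gene Tek stood at 22.4 and 22.0 CPM in CF and 4.36 and 4.74 CPM with ZLN005 (log2 change -2.29 ± 0.15, adjusted p = 4.99e-07). Kdr, a receptor for vascular growth factor, stood at 3.53 and 1.38 CPM in CF and 12.8 and 13.3 CPM with ZLN005 (log2 change 2.41 ± 0.30, adjusted p = 7.33e-05, and 3.27 without CF replicate 1). Of the epicardial and mesothelial list, 4 rose and 8 fell among 12 tested (median log2 change -1.35), with a summed level of 408 and 489.5 CPM in CF and 296 and 293 CPM with ZLN005. Wt1, an epicardial transcription factor gene, stood at 60.5 and 64.8 CPM in CF and 13.7 and 11.4 CPM with ZLN005 (log2 change -2.32 ± 0.13, adjusted p = 1.2e-07), while the mesothelial surface gene Msln rose from 30.5 and 34.6 to 76.1 and 74.7 CPM (log2 change 1.21 ± 0.07, adjusted p = 1.49e-07). Of the pericyte list, 2 rose and 3 fell among 7 tested (median log2 change -0.02), with a summed level of 1510 and 1777 CPM in CF and 732 and 737 CPM with ZLN005. The median of this short list was between -1.08 (without CF replicate 2) and -0.71 (without ZLN005 replicate 2) when any 1 of the 4 libraries was left out, with 8 genes tested, at -0.90 without CF replicate 1 and -0.96 without ZLN005 replicate 1. Rgs5 fell from 38.6 and 59.7 to 2.77 and 2.33 CPM (log2 change -4.28 ± 0.23, adjusted p = 9.08e-08) and Cspg4 rose from 16.9 and 24.5 to 94.0 and 94.5 CPM (log2 change 2.19 ± 0.13, adjusted p = 1.76e-07). Of smooth muscle genes, 6 rose and 3 fell among 13 tested (median log2 change 0.32), with a summed level of 4176 and 5362 CPM in CF and 7409 and 7443 CPM with ZLN005, and 5 fell without CF replicate 1. For Schwann cells and neurons, 0 of 5 tested genes were called by edgeR, DESeq2 or limma and 0 had an unadjusted p under 0.05 in edgeR (median log2 change -0.57), and 1 fell without CF replicate 2.

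Cell cycle genes fell, and 2 rose and 28 fell among 32 tested (median log2 change -1.21), with 1 rising without CF replicate 2 or either ZLN005 library. Their summed level was 1185 and 1024 CPM in CF, 808 and 803 CPM with DMSO, 668 and 673 CPM with ZLN005 and 2316 and 2307 CPM in CM, and each group lay apart from the others. Cenpf, a kinetochore protein gene, stood at 37.9 and 32.9 CPM in CF and 7.86 and 8.76 CPM with ZLN005 (log2 change -2.09 ± 0.09, adjusted p = 1.95e-08), and the proliferation marker Mki67 at 125 and 89.2 CPM in CF and 29.0 and 26.8 CPM with ZLN005 (log2 change -1.94 ± 0.13, adjusted p = 6.34e-07). Cenpa, the centromeric histone variant, rose against the rest of the list, from 24.4 and 20.8 to 119 and 126 CPM (log2 change 2.44 ± 0.07, adjusted p = 5.76e-10), beside 52.1 and 52.3 CPM in CM. Of the D cyclins and cell cycle inhibitors, 4 rose and 8 fell among 13 tested (median log2 change -0.43), with 2 rising without ZLN005 replicate 2. Cdkn1a, which encodes the inhibitor p21, rose from 316 and 312 to 749.8 and 779 CPM (log2 change 1.28 ± 0.04, adjusted p = 2.45e-09), while the inhibitor genes Cdkn2a and Cdkn1b fell by 1.86 and 1.03 on the log2 scale.

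Interferon-stimulated genes, the antiviral programme, rose, and 27 of 28 tested genes rose (median log2 change 1.34). Their summed level was 1733 and 1303 CPM in CF, 3006 and 3087 CPM with DMSO, 3988 and 3981 CPM with ZLN005 and 103 and 109 CPM in CM. Rsad2, the antiviral protein viperin, stood at 14.5 and 11.1 CPM in CF and 95.1 and 96.1 CPM with ZLN005 (log2 change 2.90 ± 0.10, adjusted p = 3.93e-09). Irf7, a transcription factor of the response, stood at 63.0 and 46.1 CPM in CF and 242 and 246 CPM with ZLN005 (log2 change 2.16 ± 0.11, adjusted p = 7.64e-08). Both ZLN005 libraries lay above both CF libraries for these genes. Chemokine ligand genes went down, and 1 rose and 11 fell among 13 tested (median log2 change -2.04), with 0 rising without ZLN005 replicate 2. With the macrophage list and genes 2-fold apart between the CF libraries left out, 5 chemokine ligand genes fell. A link to the fall of the macrophage list was not tested. Cx3cl1, the membrane-bound chemokine fractalkine, fell from 69.6 and 92.4 to 27.1 and 28.2 CPM (log2 change -1.55 ± 0.11, adjusted p = 8.05e-07). Cxcl12 fell from 490.3 and 558 to 339 and 326 CPM (log2 change -0.66 ± 0.06, adjusted p = 7.09e-06).

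Immediate early genes, which respond quickly to growth factors, stretch and activity, were higher with ZLN005 than in either CF or DMSO cells. Against CF, 12 rose and 2 fell among 15 tested (median log2 change 0.99) with ZLN005, while 3 rose and 3 fell with DMSO (median 0.06), and 10 of them rose between DMSO and ZLN005 (median 0.84). Fos stood at 12.4 and 8.19 CPM in CF, 8.23 and 8.42 with DMSO and 43.9 and 43.1 with ZLN005 (log2 change 2.07 ± 0.15 against CF). Egr1 stood at 98.8 and 93.5 CPM in CF, 79.2 and 80.0 with DMSO and 326 and 331 with ZLN005 (1.77 ± 0.05). The nuclear receptor gene Nr4a1 stood at 7.56 and 9.44 CPM in CF, 17.2 and 18.0 with DMSO and 49.1 and 49.1 with ZLN005 (2.53 ± 0.08). For Fos the CF and DMSO libraries overlapped, for Egr1 both DMSO libraries lay below both CF libraries, and both ZLN005 libraries lay above them for both genes.

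Among stress lists, those of the integrated stress response and of NRF2 had medians near the -0.01 of all genes. Of these lists 31.2% and 20% were called higher, beside 24.0% of all tested genes. Called lower were 18.8% and 26.7%, beside 26.0%. Of p53 targets, 9 rose and 3 fell among 16 tested (median log2 change 0.32), with the death receptor gene Fas at 56.5 and 59.7 CPM in CF and 118 and 116 CPM with ZLN005 (log2 change 1.01 ± 0.04, adjusted p = 2.38e-08). Of the integrated stress response, 5 rose and 3 fell among 16 tested (median log2 change 0.01), with the lipoprotein receptor gene Vldlr at 57.8 and 64.5 CPM in CF and 284 and 284 CPM with ZLN005 (log2 change 2.21 ± 0.05, adjusted p = 1.99e-10). Of NRF2 antioxidant genes, 3 rose and 4 fell among 15 tested (median log2 change -0.07), with 5 rising without CF replicate 1, and the glutathione transferase gene Gsta4 fell from 9.78 and 11.8 to 2.65 and 3.51 CPM (log2 change -1.80 ± 0.18, adjusted p = 1.41e-05). Of heat shock protein genes, 7 of 18 tested genes rose (median log2 change 0.18), with 12 rising without CF replicate 2 and 11 with DESeq2's size factors, and the small heat shock gene Hspb7 of striated muscle rose from 146 and 199 to 804 and 844 CPM (log2 change 2.26 ± 0.12, adjusted p = 6.3e-08). Of Y-linked genes, 3 of 4 tested genes rose (median log2 change 0.26), the largest being Eif2s3y at 42.6 and 44.8 CPM in CF and 62.9 and 62.3 CPM with ZLN005 (log2 change 0.52 ± 0.06, adjusted p = 3.98e-05). Uty, also called (log2 change 0.19), did not pass with DESeq2 (adjusted p = 0.0626) or with no filter on low counts (adjusted p = 0.077). Its log2 change was 0.18 without CF replicate 1 and 0.18 without ZLN005 replicate 2.

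Nuclear genes of the respiratory chain rose together by small amounts. In complex I, 30 of 35 tested genes rose (median log2 change 0.39), in complexes II to IV 24 of 25 tested genes rose (median log2 change 0.59), and in the ATP synthase and ATP-ADP exchange list 15 rose and 1 fell among 18 tested (median log2 change 0.49), with 0 falling without CF replicate 2 or ZLN005 replicate 2. With DMSO against CF, 17 genes of complex I, 22 of complexes II to IV and 11 of the ATP synthase list rose. Between DMSO and ZLN005, 8, 16 and 7 genes of these lists rose and 1 gene of complexes II to IV fell. The medians of that step were 0.20, 0.22 and 0.19. Cox8a, a subunit of cytochrome oxidase, stood at 61.8 and 61.0 CPM in CF and 106 and 104 CPM with ZLN005 (log2 change 0.78 ± 0.04, adjusted p = 7.32e-08). Atp5b, the catalytic beta subunit of ATP synthase, stood at 479.5 and 513 CPM in CF and 776 and 759.7 CPM with ZLN005 (log2 change 0.63 ± 0.05, adjusted p = 2.12e-06). In CM, Cox8a stood at 113 and 117 CPM and Atp5b at 1983 and 2021 CPM. Of the 13 genes encoded by the mitochondrial genome, 6 rose and 3 fell against CF among 13 tested (median log2 change 0.15). Against DMSO, 0 of them rose and 4 fell with ZLN005. COX1 went from 7023 and 7536 to 10210 and 10970 CPM (log2 change 0.54 ± 0.07, adjusted p = 8.78e-05). The genes that fell against CF were ATP6, COX3 and COX2, with log2 changes of -0.415, -0.397 and -0.185, and COX2 did not pass with DESeq2 (adjusted p = 0.0735). Tricarboxylic acid cycle genes also rose, and 19 rose and 2 fell among 24 tested (median log2 change 0.33), with Idh3a, a subunit of isocitrate dehydrogenase, at 60.6 and 69.1 CPM in CF and 130 and 126 CPM with ZLN005 (log2 change 0.98 ± 0.06, adjusted p = 2.42e-07). Idh2, the mitochondrial enzyme that makes NADPH, fell from 58.3 and 65.0 to 29.9 and 30.1 CPM (log2 change -1.04 ± 0.07, adjusted p = 4.94e-07). Of mitochondrial biogenesis and dynamics genes, 8 rose and 5 fell among 25 tested (median log2 change 0.10), with 2 falling without ZLN005 replicate 1. With all libraries, 32% of that list rose and 20% fell, beside 24.0% and 26.0% of all tested genes. The fusion gene Mfn2 rose from 87.9 and 94.5 to 145 and 138 CPM (log2 change 0.64 ± 0.05, adjusted p = 2.38e-06). Tfam, which packages mitochondrial DNA, did not pass (log2 change 0.03 ± 0.07, adjusted p = 0.775).

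Glycolytic genes rose too, and 19 rose and 2 fell among 25 tested (median log2 change 0.49), with 1 falling without CF replicate 1 and 4 without CF replicate 2. Eno3, the muscle enolase, stood at 9.89 and 13.2 CPM in CF and 132 and 128 CPM with ZLN005 (log2 change 3.49 ± 0.10, adjusted p = 9.66e-10). Slc16a1, a lactate carrier, stood at 29.4 and 29.7 CPM in CF and 123 and 127 CPM with ZLN005 (log2 change 2.08 ± 0.04, adjusted p = 7.49e-11). Slc2a4, the insulin-responsive glucose carrier of muscle and fat, stood at 1.01 and 1.66 CPM in CF and 17.5 and 17.2 CPM with ZLN005 (log2 change 3.71 ± 0.17, adjusted p = 3.58e-08). These 3 genes were higher in both ZLN005 libraries than in any CF library. Of the creatine kinase and phosphate shuttle list, 4 rose and 6 fell among 12 tested (median log2 change -0.05), with 3 falling without CF replicate 2 or ZLN005 replicate 2. The oxygen store gene Mb rose from 3.53 and 5.10 to 25.4 and 24.2 CPM (log2 change 2.52 ± 0.14, adjusted p = 1.06e-07), beside 207 and 227 CPM in CM. Gatm, which begins creatine synthesis, stood at 75.0 and 10.4 CPM in CF and 1.41 and 1.57 CPM with ZLN005 (log2 change -4.83 ± 0.77, adjusted p = 0.000408), with -2.76 without CF replicate 1 and -5.63 without CF replicate 2, and did not pass with limma-voom (adjusted p = 0.117).

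Cholesterol synthesis genes fell as a block, and 1 rose and 18 fell among 22 tested (median log2 change -0.98), with 2 rising without CF replicate 2. Insig1, which holds the sterol sensor in the endoplasmic reticulum, stood at 101 and 103 CPM in CF and 29.5 and 28.7 CPM with ZLN005 (log2 change -1.81 ± 0.04, adjusted p = 2.06e-10). Fdft1, squalene synthase, stood at 61.7 and 61.5 CPM in CF and 19.5 and 18.1 CPM with ZLN005 (log2 change -1.71 ± 0.06, adjusted p = 1.79e-09). Against DMSO, 17 fell with ZLN005 (median log2 change -0.60). Of fatty acid synthesis and desaturation genes, 4 rose and 13 fell among 21 tested (median log2 change -0.38). The desaturase genes Fads2 and Scd2 fell, from 127 and 136 to 37.9 and 35.9 CPM (log2 change -1.84 ± 0.05, adjusted p = 8.53e-10) and from 388 and 384 to 129.6 and 133 CPM (log2 change -1.56 ± 0.05, adjusted p = 1.25e-09). Gpam, which begins triglyceride synthesis in mitochondria, rose from 55.8 and 61.0 to 273 and 276 CPM (log2 change 2.23 ± 0.05, adjusted p = 1.48e-10).

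Of fatty acid uptake and oxidation genes, 12 rose and 4 fell among 25 tested (median log2 change 0.12). Acaa2, the last thiolase of mitochondrial beta-oxidation, stood at 31.1 and 31.8 CPM in CF and 132 and 133 CPM with ZLN005 (log2 change 2.07 ± 0.04, adjusted p = 1.07e-10). Fabp3, the muscle fatty acid carrier, stood at 4.99 and 4.32 CPM in CF and 29.1 and 28.2 CPM with ZLN005 (log2 change 2.62 ± 0.08, adjusted p = 1.05e-09). The fatty acid receptor Cd36 fell from 26.2 and 16.1 to 8.32 and 9.03 CPM (log2 change -1.28 ± 0.18, adjusted p = 0.000202) and lipoprotein lipase Lpl from 966 and 1213 to 615 and 619 CPM (log2 change -0.82 ± 0.09, adjusted p = 1.89e-05). Of targets of the PPAR nuclear receptors, 5 rose and 8 fell among 20 tested (median log2 change -0.26). These are 25% and 40%, beside 24.0% and 26.0% of all tested genes. Pdk4, which brakes pyruvate oxidation, rose from 16.9 and 18.5 to 33.3 and 33.1 CPM (log2 change 0.91 ± 0.05, adjusted p = 1.11e-07). Angptl4, an inhibitor of lipoprotein lipase, did not pass (log2 change 0.13 ± 0.14, adjusted p = 0.455). Of aryl hydrocarbon receptor targets, 1 rose and 5 fell among 8 tested (median log2 change -0.79), with 3 falling without ZLN005 replicate 2. Cyp1b1, a cytochrome P450, fell from 158 and 182 to 16.4 and 16.3 CPM (log2 change -3.38 ± 0.07, adjusted p = 4.85e-11), and the receptor gene Ahr from 16.3 and 18.5 to 2.70 and 2.98 CPM (log2 change -2.61 ± 0.15, adjusted p = 1.97e-07).

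The net change can be read as a step from CF to DMSO iCM and a step from DMSO iCM to ZLN005 iCM, which share the DMSO libraries. With predicted genes and those under 5 CPM left out, 57 genes were called at least 2-fold higher with ZLN005 against both CF and DMSO. In the same way, 250 were called lower against both. Of all 15740 tested genes, 6.64% were called higher and 8.84% lower against DMSO at any size. Both calls use the same ZLN005 libraries, and macrophage genes were not left out. Genes passing the filters were not counted, so no share is given, and the counts were not repeated with a library left out. For Csrp3 the steps were 4.90 and 2.41 on the log2 scale, and for Myl1 4.16 and 2.21. Other genes reached their level at the step to DMSO, since the steps were 10.53 and 0.00 for Kcnc4 and 7.44 and 0.10 for Tbx5. Serpinf1, a secreted antiangiogenic protein of fibroblasts, moved down at both, by 2.12 and 2.12. Tpm3-rs7 and Rpl26 rose at the ZLN005 step (2.55 and 2.16), and both have near-identical copies that leave their counts uncertain.

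Other genes turned back between the steps. With both steps called and at least 2-fold, 1 gene fell and then rose, and 16 rose and then fell. Predicted genes and those under 5 CPM were again left out, and no share is given. These counts were also not repeated with a library left out. Frem1, a basement membrane protein, had steps of -2.48 and 1.08 and a net change of -1.40 ± 0.07. Cck, the peptide cholecystokinin, had steps of 4.91 and -3.43, and stood at 0.315 and 0.574 CPM in CF, 12.8 and 14.1 with DMSO and 1.29 and 1.20 with ZLN005. The transporter gene Slc6a17 had steps of 2.46 and -1.54. Nppa had steps of 1.14 and -1.53 and ended below CF in both ZLN005 libraries. Ly6a, the surface antigen Sca-1, had steps of 1.71 and -1.63 and stood at 8.99 and 3.79 CPM in CF and 6.86 and 6.69 CPM with ZLN005 (log2 change 0.08 ± 0.30, adjusted p = 0.842). Its net change was 0.86 without CF replicate 1 and -0.41 without CF replicate 2, so that its direction rested on 1 library.

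**Figure D5:**
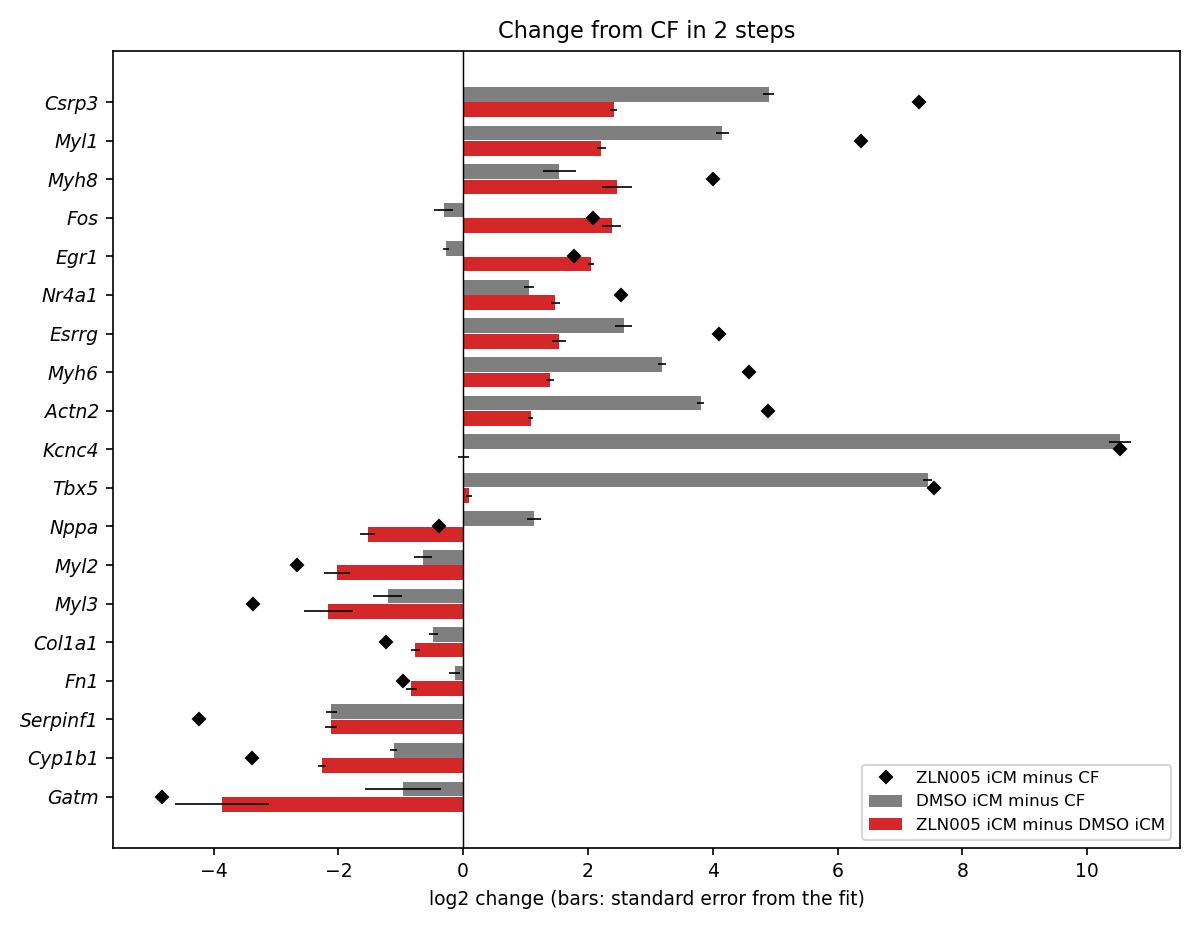
Log2 changes of 19 genes at the step from CF to DMSO iCM (grey bars) and from DMSO iCM to ZLN005 iCM (red bars), with standard errors of the fit, and the net change from CF (diamonds). Csrp3 and Myl1 rise at both steps, Kcnc4 and Tbx5 at the grey step, Fos and Egr1 at the red step, and Nppa rises and then falls.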

How the data were processed

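PolyA RNA was measured in 10 libraries of 5 groups, made with TRIzol and TruSeq from 2 ug of total RNA, per the labels' protocols. The authors deposited raw read counts per gene. Per the submitters' processing notes, the tools were Trimmomatic 0.36, HISAT2, SAMtools and featureCounts (Subread 1.5.1) and the build mm10, with no role or order given. Annotation, strand setting and treatment of shared reads were not given in the sources used here. Counts were analysed with edgeR 4.0.16 (R 4.3.3; TMM scaling, filterByExpr, quasi-likelihood fit of all 5 groups, which pools the spread of 2 libraries a group), and contrasts were called at an adjusted p under 0.05. limma 3.58.1 and DESeq2 1.42.0 served as alternatives. Standard errors were taken as the log2 change over the root of F. Coordinates come from GENCODE M21 (GRCm38) and promoters from RefSeq (GRCm38.p6).

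Genes named are the factors, Ppargc1a, Ppard and Scd1, the 12 largest rises and falls with at least 5 CPM in the higher group, up to 4 genes of each of 46 lists, and genes moving at both steps or turning back. Other list members, and the 12 largest outside the macrophage list and genes 2-fold apart between CF libraries, were named after their values were seen. The members and lists were chosen with earlier results of these data known. The fit of ZLN005 iCM against CF was tried on simulated counts with 50 genes changed at each size. It called 46% of 1.5-fold, 70% of 2-fold, 86% of 4-fold and 96% of 8-fold changes, and 5.1% of calls were false. All groups were simulated with the same spread, while the CF libraries stood further apart than the others. Some genes are not reported here.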

Additional observations from a re-analysis of the deposited data

How the results depend on the processing

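Against CF, the counts of genes higher and lower with ZLN005 stayed within 1.5 times of 3785 and 4095 with DESeq2, limma-voom, DESeq2's size factors, other filters on low counts, the 4 libraries alone, a threshold of 0.01, and the macrophage list with genes 2-fold apart between CF libraries left out. Testing for a change beyond 1.5-fold (edgeR's glmTreat) left 1332 higher and 1657 lower. Leaving out 1 CF or ZLN005 library gave 3181 to 4158 higher and 3142 to 4173 lower. For ZLN005 against DMSO, leaving out 1 library gave 477 to 588 higher and 571 to 712 lower. For DMSO against CF it gave 2411 to 3617 higher and 2265 to 3561 lower. Where 1 library was left in a group, it was assumed to vary like the others. With DESeq2's size factors the median log2 change of all genes against CF was 0.006 in place of -0.01.

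Replicate numbers in the labels name libraries and are not said to mark a shared batch. Deviations of CF and ZLN005 libraries with the same number had a correlation of -0.003 across genes, so the libraries were not treated as paired. With the replicate number as a block, 3711 genes were higher and 4008 lower than in CF with ZLN005, 960 higher and 1292 lower than with DMSO, and 3043 higher and 2994 lower for DMSO against CF.

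For the 217 genes named by rule, 2760 of 2820 alternative values against CF kept their direction and side of the threshold. A call was lost in 58, of which 30 were under glmTreat and 15 under limma-voom, and 1 was gained. The limma-voom losses included 10 of the 12 largest falls. Genes named outside the rule, among them Tnni1, Ckm, Cavin4 and Nkx2-5, are not in these numbers, and their changes on leaving out a library stand beside their values. Ly6a reversed without CF replicate 2, at -0.407 (adjusted p = 0.00736), and was called without CF replicate 1, at 0.860. The cause was not tested. With 2 libraries a group, a difference that misses the threshold is not shown to be absent.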
